A study of Mus musculus with 16 samples.

Results

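Neat1, Malat1, Meg3, Gas5 and Snhg1 are long noncoding RNAs (lncRNAs), RNA polymerase II transcripts that do not encode a stable protein. They are 5 of the 25791 gene symbols in the expression table and were taken by name, with earlier results of the same comparison known, so their differences between the groups are given as descriptions without a test. Values are FPKM, fragments corrected for transcript length and for library size, which scale with the number of transcripts rather than with their length. All 5 were among the 13286 genes that reached 1 FPKM in at least 7 of 16 libraries.

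The libraries came from glomeruli, the filtering units of the kidney, of mice labelled eNOS-/-//db/db. Both groups therefore lacked endothelial nitric oxide synthase and carried db, a loss-of-function mutation of the leptin receptor, on both chromosomes. The combination models diabetic kidney disease. In 7 mice, called RAAS-blocked, the renin-angiotensin-aldosterone system was inhibited with lisinopril (20 mg/day), which blocks angiotensin-converting enzyme, and losartan (30 mg/day), which blocks the angiotensin II type 1 receptor. The drugs were dissolved in the drinking water, from 10 to 12 weeks up to 26 weeks of age. The other 9 mice were untreated and ate the same standard diet, and strain background and sex are not stated. Mice without diabetes were not analysed here. The series asks about triacylglycerol metabolism under this treatment, and the lncRNAs are a set beside that question.

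Neat1 builds paraspeckles, nuclear bodies that form on its long isoform and hold splicing factors such as Sfpq and Nono. Malat1 sits in nuclear speckles, where splicing factors are stored, and is among the most abundant nuclear RNAs of most mammalian cells. Meg3 is transcribed from the maternal copy of the imprinted Dlk1-Dio3 cluster. Gas5 and Snhg1 are host genes of small nucleolar RNAs (snoRNAs), which are cut from their introns and guide the methylation of ribosomal RNA, while the spliced exons are exported and broken down by nonsense-mediated decay as they are translated.

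In annotation GENCODE M21 on build GRCm38, Neat1 lies at chr19:5824708-5845478 and Malat1 at chr19:5795690-5802672, both on the minus strand and both with a longest transcript of 1 exon. That transcript has 20771 bases for Neat1 and 6983 bases for Malat1. Meg3 lies at chr12:109541001-109571726 and its longest transcript has 5 exons. Gas5 lies at chr1:161034422-161038539 with 4 exons in its longest transcript, and Snhg1 at chr19:8723475-8726443 with 2. No build or annotation is stated for the deposited values, so which isoforms each value covers is unknown.

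The ends of the Neat1 and Malat1 transcripts are shown because the libraries were made with a kit for messenger RNA, which captures poly(A) tails. The long Neat1 transcript and Malat1 are not polyadenylated in the usual way. RNase P cuts them, and the new end is protected by a triple helix of 2 U-rich motifs with an A-rich tract. The capitals mark those 3 elements, written as T in DNA letters, in the 110 bases that end with the A-rich tract, at chr19:5795982-5796091 for Malat1 and chr19:5824708-5824817 for Neat1, minus strand.
Malat1 end: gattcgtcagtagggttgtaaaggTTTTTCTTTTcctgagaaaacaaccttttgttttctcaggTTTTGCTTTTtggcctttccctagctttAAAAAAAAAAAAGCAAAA
Neat1 long end: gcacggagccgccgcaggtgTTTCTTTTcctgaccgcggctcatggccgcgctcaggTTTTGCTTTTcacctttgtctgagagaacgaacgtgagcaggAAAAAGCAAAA
A short Neat1 transcript of 3004 bases ends instead at a poly(A) signal, in capitals in its last 60 bases (chr19:5842307-5842366, minus strand).
Neat1 short end: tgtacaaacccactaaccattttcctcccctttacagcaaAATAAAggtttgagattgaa
The 11 letters that close both A-rich tracts were present in 0.436% of 141767 annotated transcripts on the transcript strand. They ended at base 6691 of the longest Malat1 transcript and at the last base of the long Neat1 transcript. Of the 4 Neat1 transcripts, 1 held them. How much of each value comes from a tailed isoform was not tested.

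Promoter sequence is shown for 1 start of each of the other genes, from RefSeq on build GRCm38.p6, covering 60 bases before to 20 bases after the start. Of the 5 lncRNAs, 4 had an entry, with 6 starts in all, and Neat1 was not among them. Gas5 and Meg3 have a second start each, whose window held no match to the core motif or to TATA in the position counted here. Those windows are not shown, so the starts of Gas5 and Meg3 given here were chosen for their matches. Capitals mark the letters TGACGT or ACGTCA, the core of the cyclic AMP response element that CREB-family factors bind, the letters TATA, and any run of at least 5 C or T letters after the start. Such runs at the very first base are the hallmark of 5 prime TOP transcripts, whose translation follows mTOR activity and which include the ribosomal protein messages and several snoRNA hosts.
Gas5, chr1:161035106-161035185, plus strand: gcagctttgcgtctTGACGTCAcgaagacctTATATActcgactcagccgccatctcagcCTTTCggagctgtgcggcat
Snhg1, chr19:8723427-8723506, plus strand: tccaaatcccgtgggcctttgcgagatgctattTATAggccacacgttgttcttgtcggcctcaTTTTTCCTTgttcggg
Meg3, chr12:109540936-109541015, plus strand: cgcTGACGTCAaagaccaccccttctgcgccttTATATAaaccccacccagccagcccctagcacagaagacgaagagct
Malat1, chr19:5802653-5802732, minus strand: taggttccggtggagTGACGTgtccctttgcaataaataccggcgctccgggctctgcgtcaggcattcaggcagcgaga
Gas5 and Meg3 held the whole palindrome TGACGTCA, in which both core motifs overlap, and it was present in 1.79% of 32851 promoter windows of 300 bases, searched on both strands. The core motif in either orientation was present in 3 of the 6 windows and in 7.51% of all windows. TATA began 29 bases before the shown start of Gas5 and 27 bases before those of Meg3 and Snhg1, and 5.08% of all windows had it between 35 and 20 bases before the start. The longest run of C or T in the first 20 bases was 5 letters in Gas5, where it begins at the start itself, and 9 letters in Snhg1. Runs of at least 5 and of at least 9 letters were present in 32.8% and 4.2% of all windows. A match describes these letters and does not show that a factor binds.

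Glomerular identity and library quality were examined first. The podocyte gene Nphs1, which encodes nephrin of the slit diaphragm, stood at 181 to 470 FPKM in RAAS-blocked libraries and at 189 to 433 FPKM in untreated libraries. Tubule RNA was present too, since Umod of the thick ascending limb stood at 107 to 527 FPKM in RAAS-blocked libraries and at 193 to 1168 FPKM in untreated libraries. Nos3, the gene disrupted in both groups, had 15.4 to 36.7 FPKM in RAAS-blocked and 12.1 to 43.8 FPKM in untreated libraries, and because the deleted part is not stated this row does not check the genotype. Rn18s, which stands for 18S ribosomal RNA, was at 2214 to 9925 FPKM in all 7 RAAS-blocked libraries and was listed at 0 in all 9 untreated ones. That split follows the groups exactly, so a difference in library making or in processing between the groups cannot be told apart from the treatment for any gene below. RAAS-blocked replicate 4 stood apart with 16919 symbols above 0, against 17993 to 18613 in the other 15 libraries. Its Ren1 level was 33.5 FPKM, while the other 6 RAAS-blocked libraries had 443 to 1584 FPKM and the untreated libraries 6.92 to 263 FPKM. Ren1 encodes renin, whose messenger RNA is known to increase when angiotensin signalling is blocked. By this gene the library lay within the untreated range and against its label. By Rn18s it lay with the RAAS-blocked libraries, the only ones above 0, and its 9925 FPKM was the highest of these 7. Since library making or processing may set the Rn18s values, they cannot show whether this mouse received the drugs. The label is kept here but is in doubt, and values that rest on this library are given with and without it where both were computed. Each library is taken as a separate mouse from the treatment protocol, and the p-values cover only the variation from one library to another.

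The 5 RNAs spanned a wide range of levels in the same order in nearly every library. Over the 16 libraries Neat1 averaged 213 FPKM and ranked 324th of the 13286 genes by mean, Malat1 averaged 88.0 FPKM (rank 868), Snhg1 29.7 FPKM (rank 3081), Meg3 8.39 FPKM (rank 7944) and Gas5 6.71 FPKM (rank 8807). Neat1 exceeded Malat1, Malat1 exceeded Snhg1 and Snhg1 exceeded Meg3 in 7 of 7 RAAS-blocked and 9 of 9 untreated libraries. Meg3 and Gas5, the lowest pair, were not separated, with Meg3 the higher in 4 of 7 RAAS-blocked and 6 of 9 untreated libraries. The order is one of FPKM in poly(A)-selecting libraries. Malat1 and the long Neat1 transcript lack a standard tail, and the isoforms covered are unknown, so the order in the cells may differ.

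**Figure D1:**
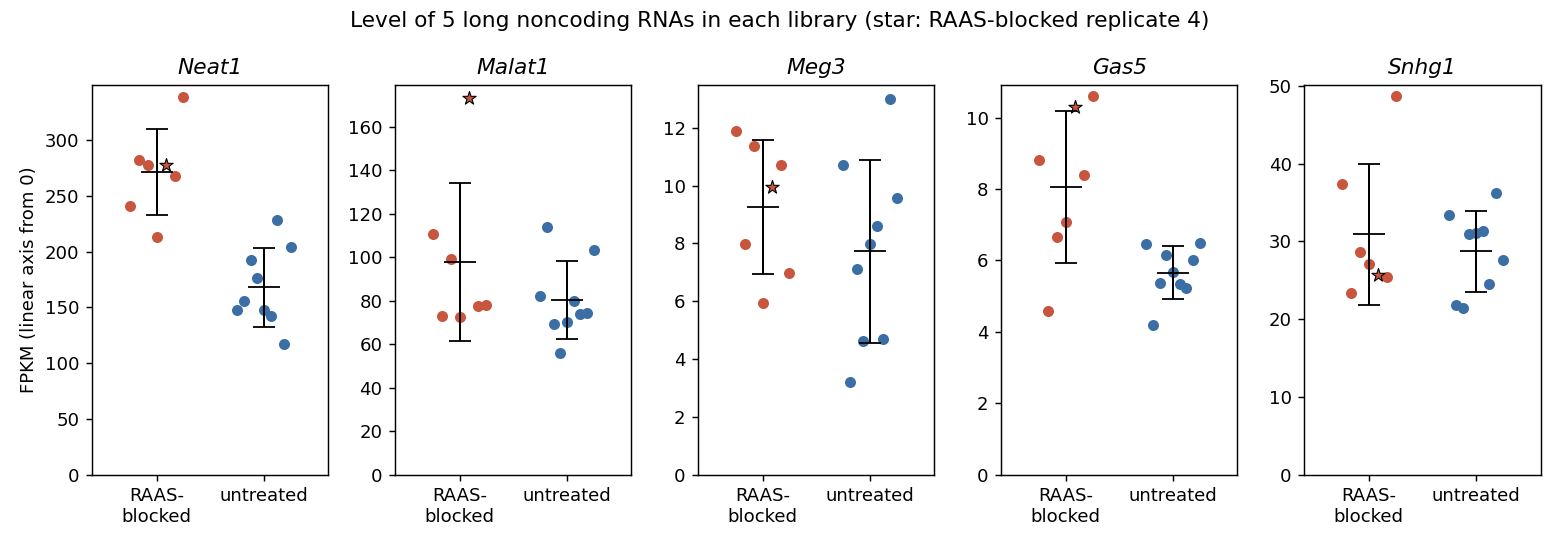
FPKM of the 5 lncRNAs in each library on linear axes from 0, with RAAS-blocked libraries (7, left) and untreated libraries (9, right) as points and the mean ± SD as bars; the star is RAAS-blocked replicate 4. Neat1 and Gas5 have 6 of 7 RAAS-blocked points above every untreated point, and the Malat1 star stands at 173 FPKM.

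Neat1 showed the widest separation of the groups. It had 240, 282, 278, 213, 278, 268 and 338 FPKM in RAAS-blocked replicates 0 to 6, with a mean of 271 ± 38.7 FPKM (SD, n = 7). The untreated libraries ran from 117 FPKM through a median of 156 FPKM to 228 FPKM, with a mean of 168 ± 35.2 FPKM (SD, n = 9). Thus 6 of 7 RAAS-blocked libraries lay above all untreated ones, and the ranges overlapped only through RAAS-blocked replicate 3 (213 FPKM) and untreated replicate 6 (228 FPKM). Of all tested genes 0.173% had at least 6 of 7 RAAS-blocked libraries above all 9 untreated ones. The ratio of means was 1.61 and the difference of mean log2(FPKM + 1), RAAS-blocked minus untreated, was 0.70 ± 0.13 (SE). All log2 differences below are on this scale and in this direction, and the median over all tested genes was -0.02. Leaving out RAAS-blocked replicate 4 gave Neat1 means of 269.96 FPKM in RAAS-blocked and 168 FPKM in untreated libraries.

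Malat1, in contrast, overlapped between the groups except for 1 library. RAAS-blocked libraries had 111, 72.8, 99.0, 72.4, 173, 77.8 and 78.2 FPKM in replicates 0 to 6, with a mean of 97.8 ± 36.4 FPKM (SD, n = 7). Untreated libraries ran from 56.1 FPKM through a median of 74.3 FPKM to 114 FPKM, with a mean of 80.3 ± 17.8 FPKM (SD, n = 9). Only RAAS-blocked replicate 4 exceeded every untreated library. The log2 difference was 0.24 ± 0.18 (SE) and was 0.09 without that replicate, when the RAAS-blocked mean was 85.2 FPKM. Of 9 tested RNAs that lack a standard poly(A) tail, 4 had their highest and 2 their lowest level of the 16 libraries in that library. Rn7sk, the 7SK RNA that holds the elongation factor P-TEFb, was at 87.2 FPKM there, against a median of 36.3 FPKM over RAAS-blocked and 33.2 FPKM over untreated libraries. Rpph1, the RNA of RNase P, was at 12.2 FPKM, and Rmrp, the RNA of RNase MRP, at 9.87 FPKM, each the highest of the 16, as was Rn18s. The lowest were histone messages, among them Hist1h4h at 0.696 FPKM, against 3.21 FPKM in the next lowest library, while the more abundant histone message Hist1h2bc was at 75.5 FPKM, within the range of the others (61.6 to 133 FPKM). The part of such RNAs in the Malat1 value of this library was not tested.

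Meg3 varied widely between untreated mice. RAAS-blocked libraries had 11.9, 7.98, 11.4, 5.92, 9.94, 10.7 and 6.99 FPKM in replicates 0 to 6, averaging 9.26 ± 2.30 FPKM (SD, n = 7). Untreated libraries ran from 3.19 FPKM through a median of 8.00 FPKM to 12.99 FPKM and averaged 7.72 ± 3.17 FPKM (SD, n = 9). No RAAS-blocked library lay outside the untreated range. The log2 difference was 0.29 ± 0.23 (SE) and became 0.17 without untreated replicate 1, the lowest library. The coefficient of variation was 24.9% in RAAS-blocked and 41.1% in untreated libraries, where it was higher than for any of the other 4 RNAs in either group.

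Gas5 was low, and its RAAS-blocked libraries were more spread than the untreated ones. It had 8.82, 4.58, 6.65, 7.08, 10.3, 8.40 and 10.6 FPKM in RAAS-blocked replicates 0 to 6, with a mean of 8.06 ± 2.13 FPKM (SD, n = 7). Untreated libraries lay within 4.18 and 6.49 FPKM, with a median of 5.67 FPKM and a mean of 5.66 ± 0.732 FPKM (SD, n = 9). As for Neat1, 6 of 7 RAAS-blocked libraries exceeded all untreated ones, but the exception here was RAAS-blocked replicate 1. The log2 difference was 0.42 ± 0.13 (SE), for a ratio of means of 1.43. Without RAAS-blocked replicate 4 the means were 7.69 FPKM in RAAS-blocked and 5.66 FPKM in untreated libraries.

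Snhg1 gave the smallest difference. RAAS-blocked libraries had 37.3, 23.4, 28.6, 27.1, 25.7, 25.4 and 48.8 FPKM in replicates 0 to 6, averaging 30.9 ± 9.07 FPKM (SD, n = 7). Untreated libraries ran from 21.5 FPKM through a median of 31.0 FPKM to 36.3 FPKM and averaged 28.7 ± 5.18 FPKM (SD, n = 9). The RAAS-blocked mean was the higher one, but its median of 27.1 FPKM lay below the untreated median. The log2 difference was 0.08 ± 0.15 (SE) and turned to -0.03 without RAAS-blocked replicate 6, which also had the highest Neat1 and Gas5 values of all 16 libraries.

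Over all genes the comparison found few differences. With limma and Benjamini-Hochberg adjustment over 13286 genes, 2 genes passed an adjusted p of 0.05, 1 higher (Rn18s) and 1 lower (Mgat1, named because it is the only other call), so that 0.0151% were called (0.00753% in each direction). The Mgat1 call held in 4 of the 16 limma fits that leave out 1 library, and its limma adjusted p was 0.14 under upper-quartile scaling, 0.17 under quantile normalization and 0.088 without Rn18s among the genes tested. None of the 5 lncRNAs was called, and since they were chosen on this comparison nothing is read from that. Before adjustment, 360 genes (2.71%) were higher and 454 (3.42%) lower at a p under 0.05. The mean log2 level was the higher one in RAAS-blocked libraries for 44.7% of tested genes and the lower one for 55.3%. Counts of genes with the higher or lower mean, here and below, refer to this log2 level. In bulk tissue, fewer cells of a type and less RNA per cell cannot be told apart. Cell type markers differed beside these values, 0 of them past the threshold over all 16 libraries. Without RAAS-blocked replicate 4, 6 genes were called in all and 3 of the list genes: Rn18s and the renin-cell genes Ren1 and Akr1b7 of the mesangial and smooth muscle list (limma adjusted p = 0.0038 for Ren1 and 0.035 for Akr1b7). All 14 tested mesangial and smooth muscle markers had the higher mean in RAAS-blocked libraries (median log2 difference 0.45). Their summed levels were 747 to 2482 FPKM in RAAS-blocked and 328 to 1101 FPKM in untreated libraries. Ren1 is part of these sums and alone averaged 982 FPKM in RAAS-blocked and 64.7 FPKM in untreated libraries. The sums were not computed without Ren1, so they do not measure the amount of these cells. All 5 tested fibroblast markers also had the higher mean in RAAS-blocked libraries (median 0.63). Their summed levels were 50.2 to 87.9 FPKM in RAAS-blocked and 24.1 to 71.1 FPKM in untreated libraries. Of 16 podocyte markers 3 were higher and 13 lower (median -0.11), and of 15 endothelial markers 3 were higher and 12 lower (median -0.22). The podocyte gene Podxl was listed at 0 in every library. All 10 tested macrophage and dendritic cell markers had the higher mean log2 level in RAAS-blocked libraries (median 0.40). Their summed levels were 365 to 2266 FPKM in RAAS-blocked and 365 to 4909 FPKM in untreated libraries. In mean FPKM, C1qa and C1qb of this list were lower in RAAS-blocked libraries, and Lyz2 and Emr1 were higher. All 5 erythroid markers had the lower mean log2 level (median -1.31). The part of cell makeup in the lncRNA differences was not tested.

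Genes of the bodies that Neat1 and Malat1 belong to were examined next. Among 29 tested paraspeckle proteins, 0 passed the adjusted threshold of limma. At an unadjusted p under 0.05, 4 were higher (13.8% of the list against 2.71% of all genes) and 1 was lower. In RAAS-blocked libraries 19 had the higher mean (65.5% of the list against 44.7% of all genes), and the median log2 difference was 0.05. The core proteins that bind Neat1 differed little or moderately. Nono averaged 71.9 ± 3.51 FPKM in RAAS-blocked and 70.6 ± 3.24 FPKM in untreated libraries. Its partner Sfpq averaged 60.2 ± 14.1 FPKM in RAAS-blocked and 46.8 ± 5.13 FPKM in untreated libraries (SD, n = 7 and 9), with a log2 difference of 0.33 (limma adjusted p = 0.69). Pspc1, the third protein of that family, averaged 8.98 FPKM in RAAS-blocked and 8.48 FPKM in untreated libraries. Tardbp, which encodes the RNA-binding protein TDP-43, averaged 22.1 ± 5.43 FPKM in RAAS-blocked and 16.7 ± 2.01 FPKM in untreated libraries, a log2 difference of 0.37 (limma adjusted p = 0.64). The hnRNP genes Hnrnpm and Hnrnpul1 differed in opposite directions, by 0.17 and -0.15.

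The nuclear speckle list lay further from the median of all genes. Of 43 tested genes for speckle proteins and splicing regulators, 35 had the higher mean in RAAS-blocked libraries, which is 81.4% of the list against 44.7% of all genes, and the median log2 difference was 0.16. Before adjustment 16 were higher at a p under 0.05 (37.2% of the list against 2.71% of all genes) and 0 were lower, while 0 passed the adjusted threshold of limma (lowest adjusted p = 0.42). Without RAAS-blocked replicate 4, which had the highest mean level of this list, 36 had the higher mean and 13 were higher before adjustment. Ddx17, an RNA helicase of splicing, ran from 103 through a median of 106 to 154 FPKM in RAAS-blocked libraries and from 66.8 through 87.7 to 101 FPKM in untreated libraries. Its groups did not overlap, as for 0.0376% of all genes, and its log2 difference was 0.36 (limma adjusted p = 0.47). Sfrs1, the SR protein also called Srsf1, averaged 39.4 ± 6.73 FPKM in RAAS-blocked and 30.7 ± 1.99 FPKM in untreated libraries. Sfrs18, an SR-related protein, averaged 21.5 ± 2.72 FPKM in RAAS-blocked and 16.9 ± 1.93 FPKM in untreated libraries. Prpf38b, a splicing factor, averaged 23.6 ± 2.06 FPKM in RAAS-blocked and 19.5 ± 2.25 FPKM in untreated libraries. These 3 genes each had 5 of 7 RAAS-blocked libraries above all untreated ones. The share of all genes with such a count was not computed. With Ddx17 they were picked as the lowest p of the list, so nothing is read from their separation.

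**Figure D2:**
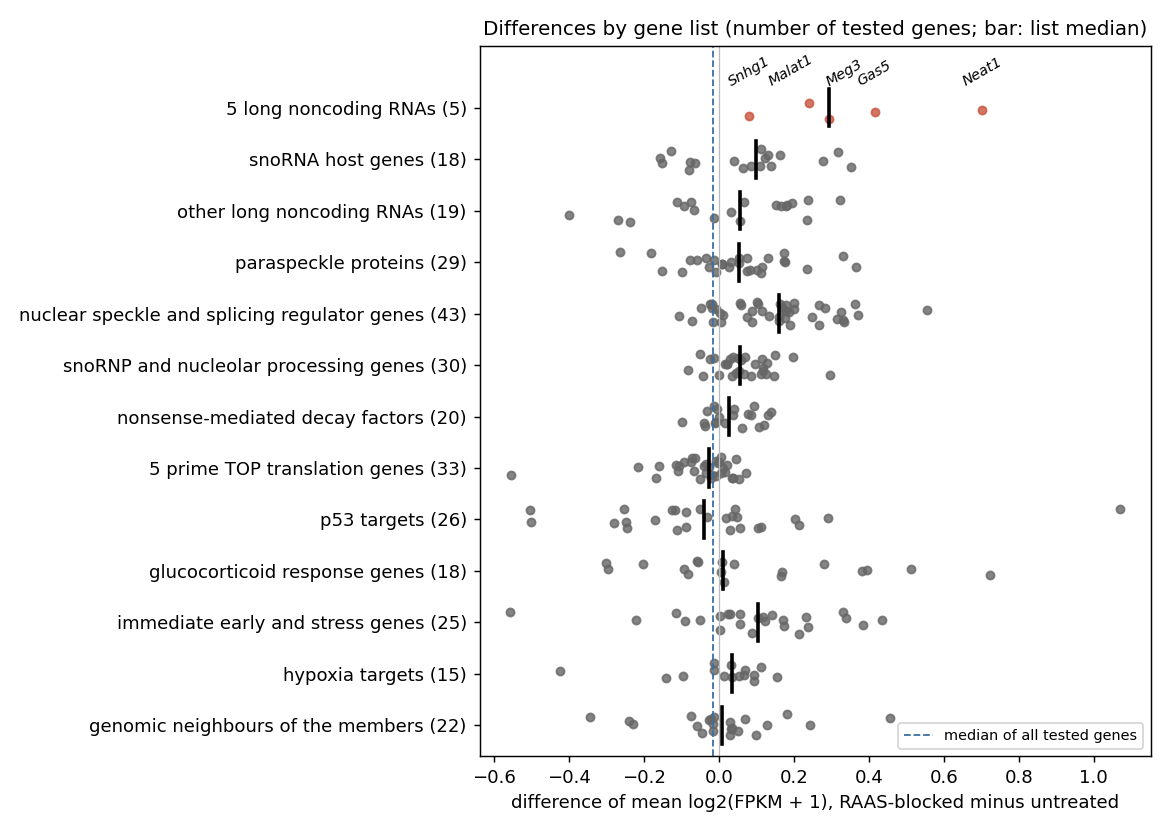
Difference of mean log2(FPKM + 1), RAAS-blocked minus untreated, for each tested gene of 13 lists (points), with the list median as a black bar and the median of all 13286 tested genes (-0.02) as a dashed line. The nuclear speckle list has its median at 0.16 and 35 of 43 genes above 0, and Neat1 lies at 0.70.

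Other genes of the Meg3 locus did not share one direction. Only 2 of 7 listed genes of the Dlk1-Dio3 cluster passed the filter on low values. Rian, a maternally expressed snoRNA host in the same cluster, averaged 9.13 ± 1.96 FPKM in RAAS-blocked and 9.09 ± 3.9004 FPKM in untreated libraries. Dlk1, a paternally expressed Notch-pathway ligand, averaged 7.01 ± 2.36 FPKM in RAAS-blocked and 8.99 ± 3.40 FPKM in untreated libraries, a log2 difference of -0.31 (limma adjusted p = 0.90). Mirg, the microRNA-bearing transcript of the cluster, was below the filter, with 0.994 FPKM in RAAS-blocked and 0.676 FPKM in untreated libraries.

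Among 18 other tested snoRNA host genes, 12 had the higher mean in RAAS-blocked libraries (66.7% of the list against 44.7% of all genes). The median log2 difference was 0.10, and 0 passed the adjusted threshold of limma (lowest adjusted p = 0.73). At an unadjusted p under 0.05, 2 were higher (11.1% of the list against 2.71% of all genes) and 0 lower. The 8 most abundant showed no common direction. Rpl13a, a ribosomal protein gene with intronic snoRNAs, averaged 644 ± 56.3 FPKM in RAAS-blocked and 672 ± 53.03 FPKM in untreated libraries. Eif4a2, an initiation factor helicase, averaged 111 ± 15.5 FPKM in RAAS-blocked and 103 ± 13.6 FPKM in untreated libraries. Hosts that, like Gas5 and Snhg1, make no known stable protein were also mixed. Snhg3 averaged 33.7 FPKM in RAAS-blocked and 32.4 FPKM in untreated libraries, and Snhg12 averaged 14.1 FPKM in RAAS-blocked and 12.6 FPKM in untreated libraries. Zfas1, listed under its older symbol 1500012F01Rik, averaged 20.6 FPKM in RAAS-blocked and 22.7 FPKM in untreated libraries, and Snhg6 averaged 13.1 FPKM in RAAS-blocked and 14.4 FPKM in untreated libraries. Snhg20, under the symbol 2810008D09Rik, averaged 18.2 FPKM in RAAS-blocked and 15.1 FPKM in untreated libraries, the largest log2 difference of the 8 at 0.28. Nop56, a core protein of the snoRNA particles that hosts snoRNAs itself, averaged 19.1 FPKM in RAAS-blocked and 17.6 FPKM in untreated libraries.

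The machinery that snoRNA hosts depend on gave 0 calls. Of 30 genes of snoRNA particles and nucleolar processing, 25 had the higher mean in RAAS-blocked libraries, which is 83.3% of the list against 44.7% of all genes, with a median of 0.06. By limma 3 were higher at an unadjusted p under 0.05 (10% of the list against 2.71% of all genes). The lowest p belonged to Nop58, the partner of Nop56, at a log2 difference of 0.30 (limma adjusted p = 0.72). Of 20 nonsense-mediated decay factors 12 had the higher mean, with a median of 0.03, 0 calls by limma and 0 genes at an unadjusted p under 0.05, and the lowest p belonged to Upf3b at 0.14 (limma adjusted p = 0.83). Of 33 genes of 5 prime TOP messages 11 had the higher mean, with a median of -0.03, 0 calls by limma and 1 gene lower at an unadjusted p under 0.05. The initiation factor Eif4b, the lowest p of these, averaged 68.5 ± 6.50 FPKM in RAAS-blocked and 79.95 ± 10.6 FPKM in untreated libraries (limma adjusted p = 0.75). Of 18 listed snoRNAs of Gas5 and Snhg1, 2 were in the table. Snord47 of Gas5 was listed at 0 in every library. Snord22 of Snhg1 ranged from 0 to 31.5 FPKM in RAAS-blocked and from 6.82 to 60.1 FPKM in untreated libraries, and its log2 difference was -1.51 (limma adjusted p = 0.82).

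Other lncRNAs did not share the Neat1 pattern. Among 19 tested, 11 had the higher mean in RAAS-blocked libraries (57.9% of the list against 44.7% of all genes). The median log2 difference was 0.06, and 0 passed the adjusted threshold of limma (lowest adjusted p = 0.75). Peg13, an imprinted lncRNA, averaged 53.7 ± 9.31 FPKM in RAAS-blocked and 64.7 ± 9.68 FPKM in untreated libraries and was the 1 member with an unadjusted p under 0.05. Tug1, a widely expressed nuclear lncRNA studied in podocytes, averaged 24.5 ± 3.82 FPKM in RAAS-blocked and 23.3 ± 1.44 FPKM in untreated libraries. Gt(ROSA)26Sor, the lncRNA of the Rosa26 locus, averaged 17.4 FPKM in RAAS-blocked and 14.5 FPKM in untreated libraries. Mir22hg, under the symbol 2210403K04Rik, averaged 52.2 FPKM in RAAS-blocked and 50.2 FPKM in untreated libraries. The unnamed lncRNAs 2900097C17Rik, 1700020I14Rik and 6720401G13Rik had log2 differences of -0.11, -0.01 and 0.24.

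Lists of pathways in which these lncRNAs are known as targets or regulators were read in the same way, beside the 44.7% of all genes with the higher mean. Neat1 is a p53 target and is induced by hypoxia, and Gas5 RNA binds the glucocorticoid receptor. Of 26 p53 targets 12 had the higher mean in RAAS-blocked libraries (median -0.04). Gdf15, a stress-induced cytokine, averaged 15.9 ± 13.3 FPKM in RAAS-blocked and 5.76 ± 2.89 FPKM in untreated libraries, while the stress sensor Sesn1 averaged 16.1 ± 4.63 FPKM in RAAS-blocked and 22.6 ± 3.51 FPKM in untreated libraries (limma adjusted p = 0.75 for Gdf15 and 0.64 for Sesn1). Of 15 hypoxia targets 10 had the higher mean (median 0.04), and Egln3, an oxygen-sensing prolyl hydroxylase, averaged 8.65 ± 1.44 FPKM in RAAS-blocked and 11.9 ± 1.83 FPKM in untreated libraries (limma adjusted p = 0.42). Of 18 glucocorticoid response genes 11 had the higher mean (median 0.01); Angptl4, an inhibitor of lipoprotein lipase, had a log2 difference of 0.72 and Tsc22d3, also called Gilz, one of -0.20 (limma adjusted p = 0.80 and 0.87). Of 25 immediate early and stress genes 20 had the higher mean (80% of the list, median 0.10), and the lowest p belonged to Hsf1, the heat shock regulator, at 0.17 (limma adjusted p = 0.75). Of 22 coding genes that neighbour the 5 lncRNAs 11 had the higher and 11 the lower mean (median 0.01). In these 5 lists 0 genes passed the adjusted threshold of limma, and each had 0 or 1 gene higher and 0 or 1 lower at an unadjusted p under 0.05. Among 9 tested RNAs without a standard poly(A) tail 8 had the higher mean (median 0.14), and the 1 call was Rn18s.

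How the lncRNAs varied between mice was asked within the groups, by subtracting each group's mean from log2(FPKM + 1), so that the treatment difference plays no part. Among the 10 pairs, 0 correlations passed a Benjamini-Hochberg adjusted p of 0.05 in a two-sided permutation test of 100000 resamples within groups, and 1 had an unadjusted p under 0.05. That pair was the 2 snoRNA hosts, Gas5 and Snhg1, with Pearson r = 0.60 (permutation p = 0.031, adjusted 0.31) and Spearman rho = 0.53 (permutation p = 0.048, adjusted 0.31). The r was 0.59 within RAAS-blocked and 0.68 within untreated libraries, and 0.48 (permutation p = 0.15) without the 2 libraries farthest from the Gas5 median, so that the relation rested in part on those libraries. Without RAAS-blocked replicate 4 it was 0.75 (permutation p adjusted 0.034). Neat1 and Malat1, which are neighbours on chromosome 19, gave r = 0.01 (permutation p = 0.96) and rho = -0.10 (permutation p = 0.72). The most negative r was that of Neat1 with Meg3 at -0.35 (permutation p = 0.24).

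**Figure D3:**
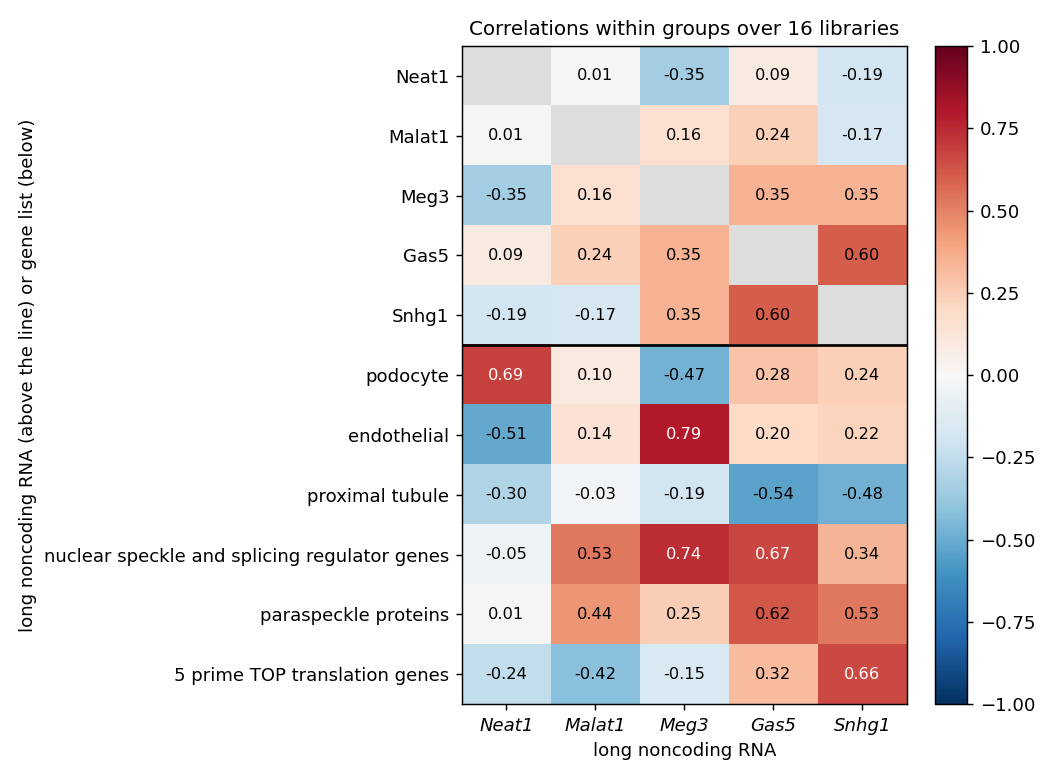
Pearson r of group-centred log2(FPKM + 1) over 16 libraries, between the 5 lncRNAs (above the line) and between each lncRNA and the mean level of 6 gene lists (below the line), coloured from -1 to 1. Gas5 and Snhg1 have the highest r among the lncRNAs (0.60), and Meg3 has the highest r with a list (0.79 with endothelial markers).

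The levels of 6 gene lists, each the mean log2(FPKM + 1) of its tested genes, were then set beside the 5 lncRNAs, giving 30 relations of which 4 passed the adjusted threshold. Neat1 followed the podocyte level, with r = 0.69 (permutation p = 0.0040, adjusted 0.040) and rho = 0.63 (permutation p = 0.016, adjusted 0.076). RAAS-blocked replicate 6 and untreated replicate 6 had both the highest podocyte level and the highest Neat1 of their groups. Without these 2 libraries r was 0.42 (permutation p = 0.17), so the relation rested on them. The podocyte list itself averaged 6.88 ± 0.37 in RAAS-blocked and 6.98 ± 0.34 in untreated libraries on the log2 scale. The part of podocyte content in the Neat1 difference between the groups was not tested.

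Meg3 followed 2 lists, the endothelial and the nuclear speckle list. Untreated replicates 0 and 7 had the highest untreated levels of both lists, so the 2 relations may not be separate results. The correlation between the 2 lists was not computed. With the endothelial level the r of Meg3 was 0.79 (permutation p = 0.0014, adjusted 0.020) and its rho 0.73 (permutation p = 0.0047, adjusted 0.061). The r was 0.72 within RAAS-blocked and 0.81 within untreated libraries, and 0.75 (permutation p = 0.0066) without the 2 libraries farthest from the endothelial median. Without untreated replicate 7, the library with the highest Meg3, r was 0.74 and its permutation p adjusted 0.065. With the nuclear speckle level r was 0.74 (permutation p = 0.00030, adjusted 0.0090) and rho 0.79 (permutation p = 0.00049, adjusted 0.015). The r was 0.64 within RAAS-blocked and 0.90 within untreated libraries, and 0.86 (permutation p = 0.00028) without the 2 farthest libraries.

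Snhg1 followed the level of 5 prime TOP genes, with r = 0.66 (permutation p = 0.0056, adjusted 0.042) and rho = 0.61 (permutation p = 0.018, adjusted 0.076). The r was 0.86 within RAAS-blocked and 0.47 within untreated libraries, and 0.66 (permutation p = 0.0085) without the 2 farthest libraries. This relation crossed the threshold with small changes, since r was 0.55 (permutation p adjusted 0.13) when libraries were scaled to their upper quartile. Gas5 had r = 0.32 with the same level (permutation p = 0.26) and r = 0.67 with the nuclear speckle level (permutation p = 0.012, adjusted 0.074). With the proximal tubule level the r of Gas5 was -0.54 (permutation p = 0.015, adjusted 0.074). It was -0.52 within RAAS-blocked and -0.75 within untreated libraries. With the paraspeckle protein level the r of Gas5 was 0.62 (permutation p = 0.019, adjusted 0.083). None of these Gas5 relations passed the adjusted threshold. Malat1 had r = 0.53 with the speckle level (permutation p = 0.061), made up of 0.92 within RAAS-blocked and -0.09 within untreated libraries, and 0.12 (permutation p = 0.71) without RAAS-blocked replicates 3 and 4. Neat1 had r = 0.01 with the level of its paraspeckle proteins (permutation p = 0.98). With the level of 5 prime TOP genes its r was -0.24 (permutation p = 0.38), and -0.72 (permutation p = 0.00052) without RAAS-blocked replicate 6 and untreated replicate 3, the farthest libraries, so its value depended on them.

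**Figure D4:**
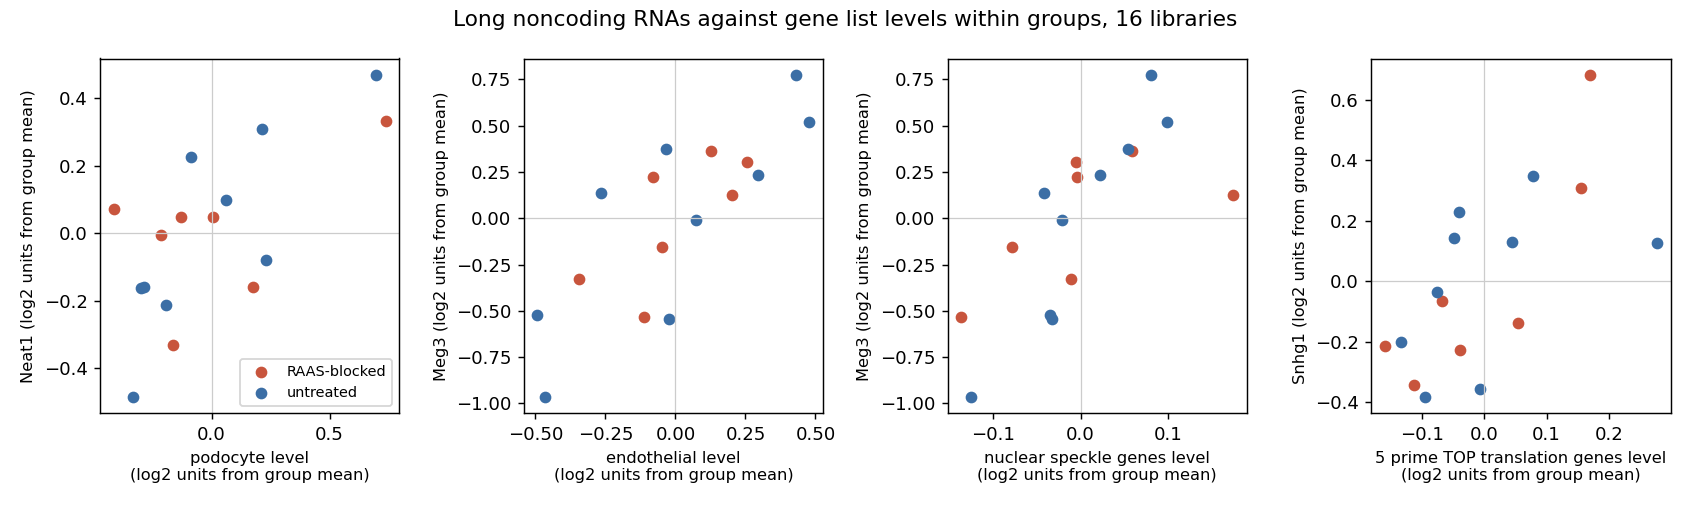
Group-centred log2(FPKM + 1) of Neat1, Meg3 and Snhg1 (vertical axes) against the group-centred mean log2 level of 4 gene lists (horizontal axes), with 7 RAAS-blocked and 9 untreated libraries as points. From left to right r is 0.69, 0.79, 0.74 and 0.66, and in the first panel the 2 points farthest to the right are replicate 6 of each group.

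The genes whose variation within the groups was most like each lncRNA were ranked by Pearson r among 9000 genes with a mean of at least 5 FPKM over the 16 libraries, as a description without a test. Nearest to Neat1 were Mmgt2 (r = 0.87), Scel (0.86), Hoxc6 (0.83), Sgcb (0.83) and Aplp2 (0.82). Nearest to Malat1 were Nucks1 (r = 0.92), Zmym5 (0.91), Atxn7 (0.90), Myst4 (0.89) and Col4a3bp (0.87), and Tug1 had an r of 0.85 with it. RAAS-blocked replicate 4 had the highest Malat1 (173 FPKM) and the highest Tug1 (31.8 FPKM) of the 16 libraries, and these r were not computed without it. Nearest to Meg3 were Gpr97 (r = 0.90), Rian (0.88), Gabbr1 (0.87), Shank3 (0.86) and Dysf (0.86). Rian is the neighbour of Meg3 in the imprinted cluster, and paternally expressed Dlk1 of the same cluster had an r of 0.63 with Meg3. The 2 extremes show the parallel: untreated replicate 7 had 12.99 FPKM of Meg3 and 17.03 FPKM of Rian, and untreated replicate 1 had 3.19 FPKM of Meg3 and 4.27 FPKM of Rian, the highest and the lowest values of each RNA over the 16 libraries. Nearest to Gas5 were Zc3h7a (r = 0.86), Zfp511 (0.82), Wsb1 (0.82), Ube2d3 (0.81) and Timp1 (0.81). Nearest to Snhg1 were Cd40 (r = 0.91), Rnf115 (0.91), Rhoc (0.89), Tor1aip2 (0.89) and Tgm2 (0.88). RAAS-blocked replicate 6 had the highest Snhg1 (48.8 FPKM), Cd40 (27.4 FPKM) and Tgm2 (139.6 FPKM) of the 16 libraries. These r were not computed without that library, so how far they rest on it is unknown. Other snoRNA hosts differed in their r with Gas5 and Snhg1. Snhg5, under the symbol 2810026P18Rik, had r = 0.84 with Gas5 and 0.72 with Snhg1, and Zfas1 had 0.63 with Gas5 and 0.61 with Snhg1. Snhg12 had 0.42 with Gas5 and 0.63 with Snhg1, Snhg6 had 0.21 with Gas5 and 0.54 with Snhg1, and Snhg3 had 0.25 with Gas5 and 0.01 with Snhg1.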

How the data were processed

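RNA of isolated glomeruli had been sequenced from poly(A)-selecting messenger RNA libraries, per the labels' protocols. The authors deposited FPKM, 1 column per library. The tools named in the submitters' processing notes include TopHat2 2.0.8 and Cuffdiff 2.2.1, besides Cufflinks, FastQC and CASAVA 1.8.2. Neither build nor annotation nor use of strand is given in the sources used here, so reads of a gene and of an overlapping or antisense one may be mixed. Depth is unknown.

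Genes reaching 1 FPKM in 7 or more libraries were tested as log2(FPKM + 1) with limma 3.58.1 in R 4.3.3 (group as the only term, mean trend and robust variance, Benjamini-Hochberg at 0.05 over all tested genes). Fold changes on this scale understate those of low genes. Correlations used Python 3.11.15 with 100000 permutations within groups. Both were tested on simulated data. The members and lists were chosen with earlier results of these data known. Besides the 5 lncRNAs, named genes are the 4 lowest p of each list, the 8 most abundant lncRNAs and hosts, and the 5 most alike by r. Genes given as markers or as parts of a body or locus were added by role.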

Additional observations from a re-analysis of the deposited data

Results flagged for a closer look

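In 67 genes named by the rule, a library lay far from the rest of its group in 16 of 134 groups, its gap to the nearest other library being a large part of the group's range. For independent groups of normally distributed values, chance alone gives this in about 1 group in 20 (Dixon's criterion). The criterion was applied here to FPKM without log, and the genes share the same libraries. The untreated Rn18s group, at 0 throughout, could not be judged. The count of 16 is therefore not set against that rate. RAAS-blocked replicate 4 accounted for 9 of the 16. It was highest for Malat1 (173 FPKM), Ddx17 (154 FPKM), Gt(ROSA)26Sor (26.3 FPKM), Rn18s (9925 FPKM), Tigd3 (2.81 FPKM) and Upf3b (15.7 FPKM), and lowest for Angptl4 (23.1 FPKM), Map3k11 (22.2 FPKM) and Rpl5 (0.554 FPKM). Other RAAS-blocked libraries apart from their group were replicate 0 for Myc (highest, 11.6 FPKM), replicate 3 for Rian (lowest, 5.02 FPKM) and replicate 6 for Slc25a29 (highest, 9.18 FPKM). Among untreated libraries, replicate 4 was apart for Hsp90aa1 (highest, 112 FPKM) and Nolc1 (lowest, 10.2 FPKM), replicate 0 for Klf9 (highest, 106 FPKM) and replicate 3 for Rpl13a (highest, 796 FPKM). Of the 5 lncRNAs only Malat1 met this criterion.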

How the results depend on the processing

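The sign of each lncRNA difference was kept under another pseudocount, 2 scalings and a replicate block, and each moved by less than 1 SD within groups. Dropping the filter or changing the variance model cannot alter these differences, only their SE, so those settings are no check on them. Leaving out 1 library at a time gave log2 differences of 0.64 to 0.76 for Neat1, 0.09 to 0.31 for Malat1, 0.17 to 0.39 for Meg3, 0.35 to 0.53 for Gas5 and -0.03 to 0.14 for Snhg1. The replicate numbers in the labels were not taken as pairs, since the deviations of same-numbered libraries correlated at -0.28 to 0.43 and over 0.1 for 4 of 7 numbers. With the replicate block the calls over all genes were 1 (Mgat1 was lost, limma adjusted p = 0.43). The Meg3 difference was 0.46 ± 0.12 (SE), against 0.29 ± 0.23 without the block. Meg3 was higher in the RAAS-blocked library of 7 of 7 same-numbered pairs. Untreated replicates 7 and 8 have no same-numbered partner, so the blocked difference does not use them. Their Meg3 levels were 12.99 and 9.58 FPKM, against an untreated median of 8.00 FPKM. Leaving out untreated replicate 7 alone gave a difference of 0.39. The part of pairing in the larger difference was not tested. The number of genes called, 2 of all tested, was 1 under upper-quartile scaling, quantile normalization and the variance model without trend (Mgat1 was lost in each), 0 without Rn18s among the genes tested (an alternative added after seeing the data, when 0 list genes were called), and 1 to 6 with 1 library left out (6 without RAAS-blocked replicate 4). List genes called were then 1 to 3, speckle genes with the higher mean 32 to 39 and those higher before adjustment 13 to 19. Spearman's rho turned the sign for Neat1 with Malat1 (-0.097) and for Malat1 with Snhg1 (0.047). With 1 library left out, r ran from -0.099 to 0.089 for Neat1 with Malat1, -0.071 to 0.21 for Neat1 with Gas5, -0.030 to 0.45 for Malat1 with Gas5 and 0.48 to 0.75 for Gas5 with Snhg1. The list relations, whose alternatives were also added later, ran from 0.57 to 0.76 for Neat1 with podocyte markers, past the adjusted threshold in 9 of 16 cases, and from 0.73 to 0.84 for Meg3 with endothelial markers (15 of 16). They ran from 0.67 to 0.87 for Meg3 with speckle genes (16 of 16) and from 0.58 to 0.76 for Snhg1 with 5 prime TOP genes (4 of 16). As rho these were 0.63, 0.73, 0.79 and 0.61, and only that of Meg3 with speckle genes passed. For Snhg1 with 5 prime TOP genes r was 0.66 (adjusted p = 0.053) with a pseudocount of 0.1 and 0.55 with upper-quartile scaling. The causes were not tested. No counts were at hand, so the precision of low values such as Gas5 and Meg3 is unknown.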
